A study of Mus musculus with 6 samples.

Results

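The UDP-glucuronosyltransferase genes Ugt1a1, Ugt1a6a, Ugt2a3, Ugt2b1, Ugt2b5, Ugt2b34, Ugt2b35, Ugt2b36, Ugt2b37 and Ugt2b38 were followed in mouse liver with and without a labelled deletion of Arid2. These 10 genes were chosen by symbol, out of 22 genes whose symbol begins with Ugt and a digit and 54532 gene identifiers measured. RNA of whole liver was sequenced in 6 libraries, 3 of wild-type mice (WT) and 3 of mice described as carrying a liver-specific knockout of Arid2 (LKO), all labelled as untreated. Arid2 encodes a subunit of the PBAF chromatin remodelling complex, and by its title the series concerns fatty liver and the kinase JAK2. The sources used here give neither strain, sex, age or diet nor the Cre driver of the deletion. Whether the libraries stem from different animals is not stated either. P-values thus measure only the spread among these libraries, which may be technical. In RNA of whole tissue, fewer cells of a type and less RNA per cell cannot be told apart.

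UDP-glucuronosyltransferases are membrane proteins of the endoplasmic reticulum that transfer glucuronic acid from UDP-glucuronic acid to bilirubin, steroids, bile acids, drugs and other lipophilic compounds, which makes them water-soluble for excretion in bile and urine. Hepatocytes are a main site of this reaction. The Ugt1a enzymes come from 1 locus in which each gene has its own promoter and first exon, spliced to a common set of downstream exons, so the amino-terminal part that binds the substrate differs while the carboxy-terminal part that binds UDP-glucuronic acid is the same. The Ugt2a3 and Ugt2b genes are separate complete genes that lie side by side in a cluster. UGT1A1 is the enzyme that conjugates bilirubin, enzymes of the 1a6 type act on small planar phenols, and Ugt2b enzymes act on steroids and many drugs.

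The exons shared within the Ugt1a locus set what the values of its genes can show, so the junction of the first exon with the second is printed for 4 of them. Lower case marks the last 45 bases of each gene's own first exon and capitals mark the first 45 bases of the shared second exon (mm10, chromosome 1, plus strand, GENCODE vM21 transcripts; second exon from chr1:88215044-88215088).
Ugt1a1, first exon part at chr1:88212827-88212871: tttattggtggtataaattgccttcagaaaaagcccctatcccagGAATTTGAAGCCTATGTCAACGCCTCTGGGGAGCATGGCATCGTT
Ugt1a6a, first exon part at chr1:88139287-88139331: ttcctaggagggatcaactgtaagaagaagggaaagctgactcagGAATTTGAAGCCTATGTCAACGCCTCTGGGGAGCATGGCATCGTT
Ugt1a6b, first exon part at chr1:88107755-88107799: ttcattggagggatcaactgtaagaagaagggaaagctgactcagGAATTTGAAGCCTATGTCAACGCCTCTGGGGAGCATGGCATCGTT
Ugt1a9, first exon part at chr1:88071634-88071678: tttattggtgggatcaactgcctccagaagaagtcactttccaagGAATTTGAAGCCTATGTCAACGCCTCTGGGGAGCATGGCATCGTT
The capitals are the same in all 4, and a read that lies within them belongs to no single gene. In the lower-case part, Ugt1a6a and Ugt1a6b were identical at 43 of 45 bases and Ugt1a1 and Ugt1a6a at 23 of 45.

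Ugt1a1 (ENSMUSG00000089960, chromosome 1, 88211959 to 88218997, plus strand) has a merged exon length of 2224 bases, of which 1311 are also exons of other Ugt1a genes. The 913 bases that remain are its first exon, with 870 coding bases. Of them, 385 also lie outside the antisense gene Gm20528, which was listed at 0 in all 6 libraries. All 1062 exon bases of Gm20528 are shared with genes of the other strand. Without the strand setting, its 0 cannot show whether it was transcribed. Ugt1a6a (ENSMUSG00000054545, chromosome 1, 88134809 to 88218997, plus strand) differs from Ugt1a1. Its coding first exon is also annotated as an exon of a Ugt1a7c transcript, and 0 of the 2142 exon bases that no other gene shares are coding. Of these bases, 1920 (89.6%) lie in 3 stretches of a transcript annotated as a retained intron, between the common exons, where the unspliced RNA of every other Ugt1a gene also runs. Ugt1a2, with 1311 of its 2211 exon bases shared, had 0 reads in 5 libraries and 1 read in LKO replicate 3, so reads of the shared exons were not counted for every gene that carries them. The FPKM of the Ugt1a genes are nevertheless divided by the full length. If all their reads came from the exon bases not shared on either strand, the mean of WT would be 63.1 FPKM for Ugt1a1 in place of 10.9, and 7.75 FPKM for Ugt1a6a in place of 3.85. With only the bases shared on the same strand left out, the WT mean of Ugt1a1 would be 26.6 FPKM. The strand setting is not given, so neither figure can be preferred.

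Among the Ugt2b genes, Ugt2b5, Ugt2b37 and Ugt2b38 are close copies. Their coding sequences of 1590 bases were identical at 97.0% of positions for Ugt2b5 and Ugt2b38, 94.7% for Ugt2b5 and Ugt2b37 and 94.1% for Ugt2b37 and Ugt2b38. Of all 50-base windows of the transcript, 41.7% of Ugt2b5, 37.4% of Ugt2b38 and 18.3% of Ugt2b37 occurred letter for letter in a transcript of another gene. With 100-base windows these shares were 24.7%, 24.2% and 1.06%. The sources used here give neither read length nor the treatment of reads that match several genes, so the levels of these 3 genes are uncertain to that extent. Ugt2b1 had 0 such windows of either length and Ugt2b36 had 0.326% at 50 bases.

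The start regions of the same 3 genes are printed because 2 of them lay higher in every LKO library and the third did not. The stretches come from RefSeq windows on GRCm38.p6, chromosome 5, minus strand, and end at the annotated start of transcription or, for Ugt2b37, at the GENCODE start that lies 16 bases before it. Capitals mark the longest run of letters that all 3 share, 62 bases.
Ugt2b5, chr5:87140341-87140480: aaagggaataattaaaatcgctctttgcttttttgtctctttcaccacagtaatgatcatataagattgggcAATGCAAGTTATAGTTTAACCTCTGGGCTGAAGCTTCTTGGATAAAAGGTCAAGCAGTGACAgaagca
Ugt2b37, chr5:87254805-87254928: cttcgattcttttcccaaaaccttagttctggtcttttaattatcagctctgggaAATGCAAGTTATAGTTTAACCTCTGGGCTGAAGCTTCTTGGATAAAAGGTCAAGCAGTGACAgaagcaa
Ugt2b38, chr5:87424204-87424343: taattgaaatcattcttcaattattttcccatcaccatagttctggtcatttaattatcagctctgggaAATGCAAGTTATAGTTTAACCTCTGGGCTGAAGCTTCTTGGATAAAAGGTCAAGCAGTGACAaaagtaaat
Over the 250 bases before the RefSeq start, Ugt2b37 and Ugt2b38 were identical at 84.8% of alignment columns, Ugt2b5 and Ugt2b38 at 81.5% and Ugt2b5 and Ugt2b37 at 72.6%. No other pair of the 10 genes exceeded 60.8%. Gaps count as differences in these shares, and the shared run lies 23 bases before the RefSeq start in Ugt2b37, against 6 in Ugt2b5 and 9 in Ugt2b38. Of aligned bases alone, 224 of 236 were identical for Ugt2b37 and Ugt2b38, 212 of 240 for Ugt2b5 and Ugt2b38 and 199 of 226 for Ugt2b5 and Ugt2b37. Motifs were searched on both strands in these 250 bases and in the same window of 32851 promoters. The letters TTCNNNGAA, of the type that STAT5 and BCL6 bind, were found in Ugt1a6a and in 7.02% of promoters. TGANNNNGC, of the antioxidant element, was found in Ugt1a1 and Ugt1a6a (35.2% of promoters) and TTGCNNAA, of the C/EBP factors, in Ugt2b5 and Ugt2b36 (9.56%). GCGTG, the core of the aryl hydrocarbon receptor site, was found in 0 of the 10 genes and in 28.2% of promoters, and the direct repeat of PPAR and HNF4 type in 0 of the 10 and in 0.338%. A match or its absence describes these windows only.

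The libraries held between 13947787 and 18159285 reads, as recovered from the steps of the FPKM values, and a transcript of 1 kb with 3 reads was worth 0.156 to 0.236 FPKM, a floor for counting error only. The 2 libraries numbered 1 stood apart, with 2003 and 2368 genes at 1 to 5 reads against 3913 to 4263 in the other 4. Arid2 was at 2.65, 1.74 and 1.79 FPKM in WT libraries 1 to 3 and at 2.55, 1.33 and 2.04 FPKM in LKO libraries 1 to 3. It did not separate the groups, the values cover the whole gene and not the deleted part, and directions below are between libraries labelled WT and LKO.

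All 10 genes were expressed and passed the filter on low values, a mean of at least 0.5 FPKM over the 6 libraries. Ugt2b37 passed only through LKO (mean 27.5 FPKM, against 0.442 FPKM in WT), so it had to differ, and counts and medians that include it are descriptions. Ugt2b5 was the most abundant, at 217, 422 and 425 FPKM in WT libraries 1 to 3 and at 229, 322 and 353 FPKM in LKO libraries 1 to 3. It was followed by Ugt2b36, Ugt2b1, Ugt2a3, Ugt2b34 and Ugt2b35, and this order of 6 genes was the same in 6 of 6 libraries. FPKM are per length, so they can be set side by side, apart from the shared sequence described above. The SDs over libraries of neighbours in this order overlapped (Ugt2b5 355 ± 119 and Ugt2b36 290 ± 111 FPKM in WT, SD, n = 3). All 6 genes were lowest in replicate 1 of each group, but between replicates 2 and 3 they did not all move the same way. Their summed level was 582 FPKM in WT replicate 1 and 556 FPKM in LKO replicate 1, against 1020 to 1222 FPKM in the other 4 libraries. They made up 97.3% to 98.4% of the summed FPKM of the 10 genes in WT and 86.7% to 93.8% in LKO.

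**Figure D1:**
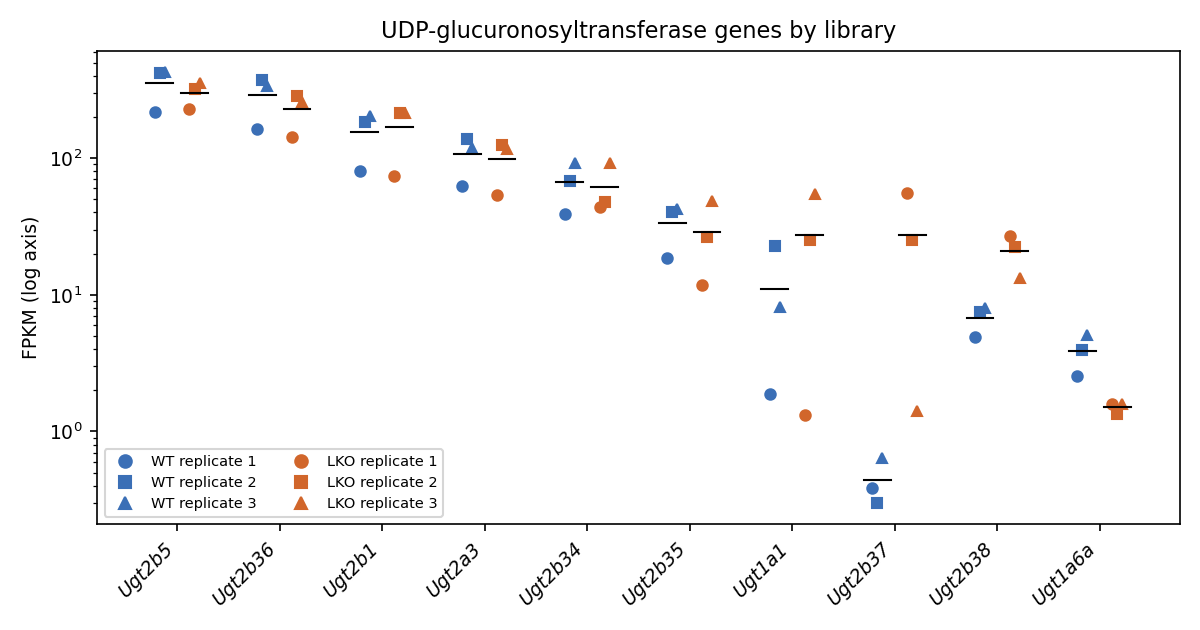
FPKM (log axis) of the 10 genes in each of the 6 libraries, ordered by the mean over all libraries; blue symbols are WT, orange symbols LKO, the symbol shape gives the replicate number and black bars are group means. Both libraries numbered 1 (circles) lie lowest for the 3 genes at the left, and the groups do not overlap for Ugt2b37, Ugt2b38 and Ugt1a6a.

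Between WT and LKO, 0 of the 10 genes rose and 0 fell at an adjusted p under 0.05 (limma-trend on log2(FPKM + 1), Benjamini-Hochberg over all 11672 genes tested). The background was as low, with 0.0428% of all genes called, 0.00857% higher and 0.0343% lower. Without adjustment 3 of the 10 genes had a limma p under 0.05, against 9.22% of all genes. Of these 2 were higher in LKO (4.28% of all genes) and 1 was lower (4.93%), and voom on recovered reads called 0 of the 10. The groups did not overlap for 3 of the 10 genes (15.4% of all genes): Ugt2b37 and Ugt2b38 lay above (8% of all genes did so) and Ugt1a6a lay below (7.42% of all genes). The median log2 difference of the 10 genes was -0.12, against 0.03 over all genes tested, and 4 of 10 were above 0 against 54.1% of all genes. In simulated data of this design, limma called 6.78% of the genes set to a 2-fold change and 76.5% of those set to a 4-fold change. A 2-fold difference would thus mostly be missed. The simulation gave every gene the same spread between libraries (dispersion 0.117) and made all libraries independent. Its shares do not carry over to genes that vary more, such as Ugt1a1 (limma SE 1.23) and Ugt2b37 (limma SE 1.03).

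**Figure D2:**
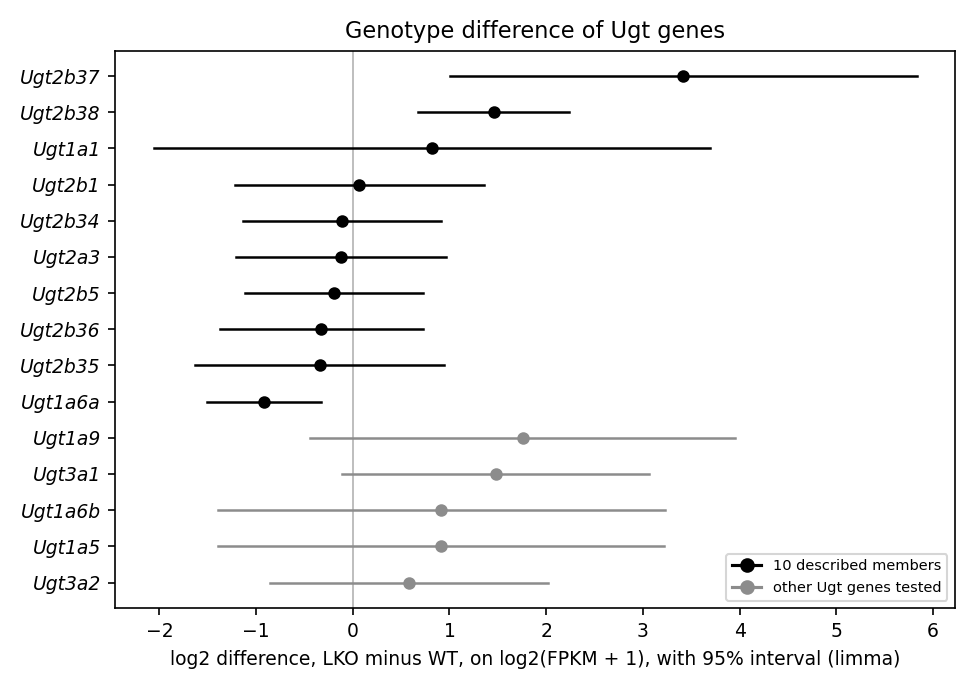
Log2 difference LKO minus WT on the log2(FPKM + 1) scale with its 95% interval (limma, 3 libraries per group) for the 10 genes (black) and the 5 other Ugt genes that passed the filter (grey). The intervals of Ugt2b37, Ugt2b38 and Ugt1a6a leave out 0 before adjustment over all genes, and the others include it.

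Ugt2b37, a Ugt2b enzyme gene (ENSMUSG00000057425, chromosome 5, 87240493 to 87254804, minus strand), was close to the floor in WT, at 0.383, 0.30 and 0.642 FPKM from 14, 10 and 19 reads. In LKO it was at 55.8 and 25.3 FPKM in replicates 1 and 2, from 1343 and 749 reads, but at 1.42 FPKM in replicate 3, from 51 reads. Every LKO library was above every WT library, while LKO replicate 3 lay nearer to WT than to the other 2 LKO libraries. The means were 0.442 ± 0.178 FPKM in WT and 27.5 ± 27.3 FPKM in LKO (SD, n = 3), a ratio of means of 62.3. The log2 difference was 3.42 ± 1.03 (SE; limma, 95% interval 1.01 to 5.83, adjusted p = 0.361). On this scale the difference of so low a gene is understated. Without LKO replicate 3 it was 4.75 and passed (limma adjusted p = 0.0189). That pass rests on leaving out the LKO library nearest to WT, for a gene that passed the filter only through LKO. Over the other libraries left out in turn, the difference lay between 2.47 and 3.52, and without LKO replicate 1 it was the lowest of these. None of those fits passed (limma adjusted p from 0.305 to 0.925).

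Ugt2b38 (ENSMUSG00000061906, chromosome 5, 87409942 to 87424203, minus strand) was at 4.91, 7.42 and 7.99 FPKM in WT libraries 1 to 3 and at 26.8, 22.3 and 13.2 FPKM in LKO libraries 1 to 3. The groups did not overlap, and the order of the LKO libraries was that of Ugt2b37. The means were 6.77 ± 1.64 and 20.8 ± 6.94 FPKM (SD, n = 3), a ratio of 3.07. The log2 difference was 1.46 ± 0.33 (SE; limma, 95% interval 0.67 to 2.24, adjusted p = 0.241), the smallest p of the 10 genes. It lay between 1.25 and 1.74 with any 1 library left out.

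Ugt2b5 (ENSMUSG00000054630, chromosome 5, 87124960 to 87140318, minus strand), the near copy of both, was at 355 ± 119 FPKM in WT and 301 ± 64.5 FPKM in LKO (SD, n = 3). Its log2 difference was -0.19 ± 0.39 (SE; limma, 95% interval -1.11 to 0.73, adjusted p = 0.930). Levels relative to Ugt2b5 in the same library do not depend on how libraries are scaled. On this measure Ugt2b38 was at 2.26%, 1.76% and 1.88% of Ugt2b5 in WT libraries 1 to 3 and at 11.7%, 6.93% and 3.75% in LKO libraries 1 to 3. Ugt2b37 was at 0.177%, 0.0711% and 0.151% of Ugt2b5 in WT and at 24.4%, 7.86% and 0.402% in LKO. Both ratios separated the groups, with a two-sided exact permutation p of 0.1, the smallest that 3 against 3 libraries allow (0.35 after Benjamini-Hochberg adjustment over 7 ratios). As Ugt2b37 passed the filter only through LKO, the separation of its ratio is a description and its p lends no support. The ratios of Ugt2b36, Ugt2b1, Ugt2a3, Ugt2b34 and Ugt2b35 to Ugt2b5 overlapped between groups (exact permutation p from 0.5 to 0.9).

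**Figure D3:**
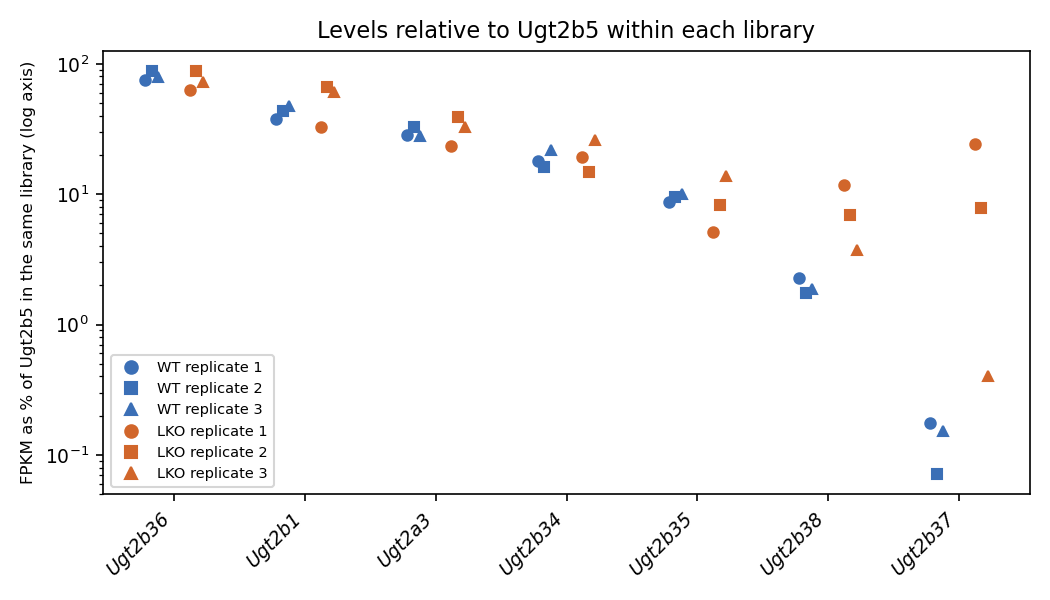
FPKM of 7 genes as a percentage of the FPKM of Ugt2b5 in the same library (log axis); blue symbols are WT and orange symbols LKO, with the shape giving the replicate number. Ugt2b36 stays between 62.5% and 88.2% of Ugt2b5 in all 6 libraries, whereas Ugt2b38 and Ugt2b37 are higher in each LKO library than in any WT library.

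Ugt1a6a, whose enzyme conjugates planar phenols, was at 2.53, 3.97 and 5.05 FPKM in WT libraries 1 to 3, from 210, 301 and 340 reads. In LKO replicates 1 to 3 it was at 1.59, 1.34 and 1.60 FPKM, from 87, 90 and 131 reads. The LKO libraries lay close together and below every WT library. The log2 difference was -0.92 ± 0.25 (SE; limma, 95% interval -1.51 to -0.33, adjusted p = 0.320). It stayed between -1.13 and -0.74 with any 1 library left out. Since 89.6% of the exon bases that only this gene has are intron sequence of the locus, its value cannot be read as that of its spliced coding transcript.

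Ugt1a1, the bilirubin enzyme, varied widely within both genotypes. It was at 1.87, 22.7 and 8.18 FPKM in WT libraries 1 to 3, from 80, 890 and 284 reads, and at 1.31, 25.4 and 54.9 FPKM in LKO libraries 1 to 3, from 37, 882 and 2318 reads. The groups overlapped over their whole WT range, with the lowest and the highest value both in LKO. The log2 difference was 0.82 ± 1.23 (SE; limma, 95% interval -2.06 to 3.69, adjusted p = 0.903). Leaving out LKO replicate 3 gave -0.13, and leaving out LKO replicate 1 gave 2.17. Leaving out WT replicate 1 gave 0.027 and WT replicate 2 gave 1.55, so libraries of both groups moved its size.

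Reads counted for the 9 Ugt1a genes summed to 335, 2001 and 782 in WT libraries 1 to 3 and to 169, 1833 and 4693 in LKO libraries 1 to 3. Of these, Ugt1a6a took 62.7%, 15.0% and 43.5% in WT and 51.5%, 4.91% and 2.79% in LKO. Ugt1a1 took 23.9%, 44.5% and 36.3% in WT and 21.9%, 48.1% and 49.4% in LKO. Ugt1a9, which also conjugates phenols, took 2.99%, 6.55% and 3.58% in WT and 10.7%, 16.9% and 19.5% in LKO. Its share was higher in every LKO library, from 10, 131 and 28 reads in WT and 18, 310 and 916 in LKO. The FPKM of Ugt1a9 overlapped between groups, and a share also rises when the reads of another gene of the locus fall. All these shares are of reads counted for each gene and not of transcripts, because the length open to counting differs between the genes.

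**Figure D4:**
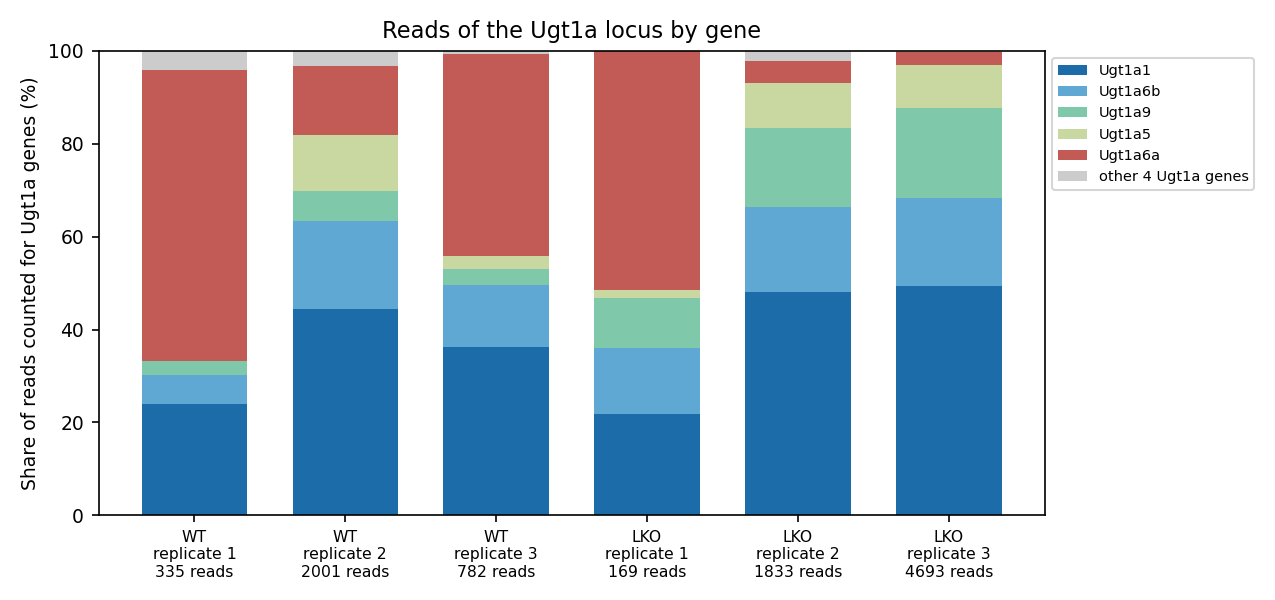
Share of the reads counted for Ugt1a genes (%) that fell to each gene, 1 bar per library, with the total number of these reads under each bar. Ugt1a6a takes the largest share in the libraries with the fewest Ugt1a reads (51.5% of 169 and 62.7% of 335) and the smallest in that with the most (2.79% of 4693).

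Of the abundant genes, Ugt2b36 (ENSMUSG00000070704, chromosome 5, 87065927 to 87092555, minus strand) was at 164, 370 and 337 FPKM in WT libraries 1 to 3 and at 143, 284 and 255 FPKM in LKO libraries 1 to 3. The groups overlapped, and the log2 difference was -0.33 ± 0.45 (SE; limma, 95% interval -1.38 to 0.73, adjusted p = 0.893). Ugt2b1 (ENSMUSG00000035836, chromosome 5, 86916638 to 86926530, minus strand) was at 81.1, 183 and 202 FPKM in WT and at 74.5, 214 and 216 FPKM in LKO. Its log2 difference of 0.07 ± 0.55 (SE; limma, 95% interval -1.22 to 1.35, adjusted p = 0.987) turned negative when libraries were scaled to their totals (-0.049) or by quantiles (-0.044). Ugt2a3 (ENSMUSG00000035780, chromosome 5, 87324972 to 87337195, minus strand), a relative of the olfactory Ugt2a enzymes, was at 62.2, 139 and 118 FPKM in WT and at 54.0, 126 and 116 FPKM in LKO. These 3 genes repeated the pattern of Ugt2b5, with the lowest value of each group in replicate 1.

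Ugt2b34 (ENSMUSG00000029260, chromosome 5, 86889767 to 86906937, minus strand) was at 39.1, 67.8 and 92.3 FPKM in WT libraries 1 to 3 and at 43.9, 48.0 and 91.6 FPKM in LKO libraries 1 to 3. Ugt2b35 (ENSMUSG00000035811, chromosome 5, 87000860 to 87013275), on the plus strand and so opposite to its Ugt2b neighbours, was at 18.7, 40.0 and 42.3 FPKM in WT and at 11.7, 26.5 and 48.4 FPKM in LKO. Both overlapped between groups. The log2 differences of Ugt2a3, Ugt2b34 and Ugt2b35 were -0.12, -0.11 and -0.34 (limma adjusted p = 0.966, 0.966 and 0.909). Their 95% intervals ran from -1.20 to 0.96, from -1.13 to 0.91 and from -1.63 to 0.95, so differences of about 2-fold in either direction lie within them.

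Of the other 12 Ugt genes, 5 passed the filter and all 5 had a log2 difference above 0, against 54.1% of all genes tested. Their median was 0.92, but none was called by limma and 0 had an unadjusted p under 0.05. Ugt3a1, which uses N-acetylglucosamine in place of glucuronic acid, was at 2.58, 9.18 and 9.09 FPKM in WT libraries 1 to 3 and at 7.16, 20.4 and 44.6 FPKM in LKO libraries 1 to 3 (limma log2 difference 1.48 ± 0.68 SE, adjusted p = 0.582). Its relative Ugt3a2 was at 26.1, 71.7 and 50.1 FPKM in WT and at 29.3, 81.2 and 134 FPKM in LKO (limma adjusted p = 0.845). Ugt1a9 was at 0.237, 3.40 and 0.819 FPKM in WT and at 0.647, 9.05 and 22.0 FPKM in LKO (limma log2 difference 1.76 ± 0.94 SE, adjusted p = 0.638). Ugt1a6b was at 0.457, 9.0 and 2.77 FPKM in WT and at 0.793, 9.02 and 19.5 FPKM in LKO, and Ugt1a5 at 0, 6.14 and 0.610 FPKM in WT and at 0.107, 5.11 and 10.3 FPKM in LKO. All 5 were highest in LKO replicate 3, as was Ugt1a1. Ugt1a2, Ugt1a7c, Ugt1a8, Ugt1a10 and Ugt8a stayed under 0.8 FPKM in every library. Ugt2a1 and Ugt2a2 were listed at 0 in all 6, but only 30 and 140 of their exon bases are not shared with another gene.

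Likeness between the genes was described by Pearson's r of log2(FPKM + 1) over 6 libraries that share depth and scaling between genes. Ugt2b5 and Ugt2b36 (r = 0.96), Ugt2a3 and Ugt2b36 (r = 0.97) and Ugt2a3 and Ugt2b1 (r = 0.97) followed each other, and Ugt2b34 followed Ugt2b36 (r = 0.70) and Ugt2a3 (r = 0.69) less closely. Ugt1a1 followed Ugt1a6b (r = 0.99), Ugt1a5 (r = 0.97), Ugt3a2 (r = 0.99) and Ugt1a9 (r = 0.92), and also Ugt2b1 (r = 0.91) and Ugt2a3 (r = 0.88). Ugt2b37 and Ugt2b38 followed each other (r = 0.93) and neither Ugt2b5 (r = -0.44 and -0.18) nor Ugt1a1 (r = -0.24 and 0.07). Ugt1a6a stood apart from the other tested genes of its own locus, with r = -0.08 against Ugt1a1, -0.20 against Ugt1a5, -0.15 against Ugt1a6b and -0.46 against Ugt1a9. Outside the locus, r ran from -0.72 against Ugt2b38 to 0.56 against Ugt2b5. It was also above 0 against Ugt2b36, Ugt2b34, Ugt2b35, Ugt2a3 and Ugt2b1, and below 0 against Ugt2b37, Ugt3a1 and Ugt3a2. Ugt1a6a lay below WT in every LKO library and Ugt2b37 and Ugt2b38 above, which by itself pulls their r below 0.

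**Figure D5:**
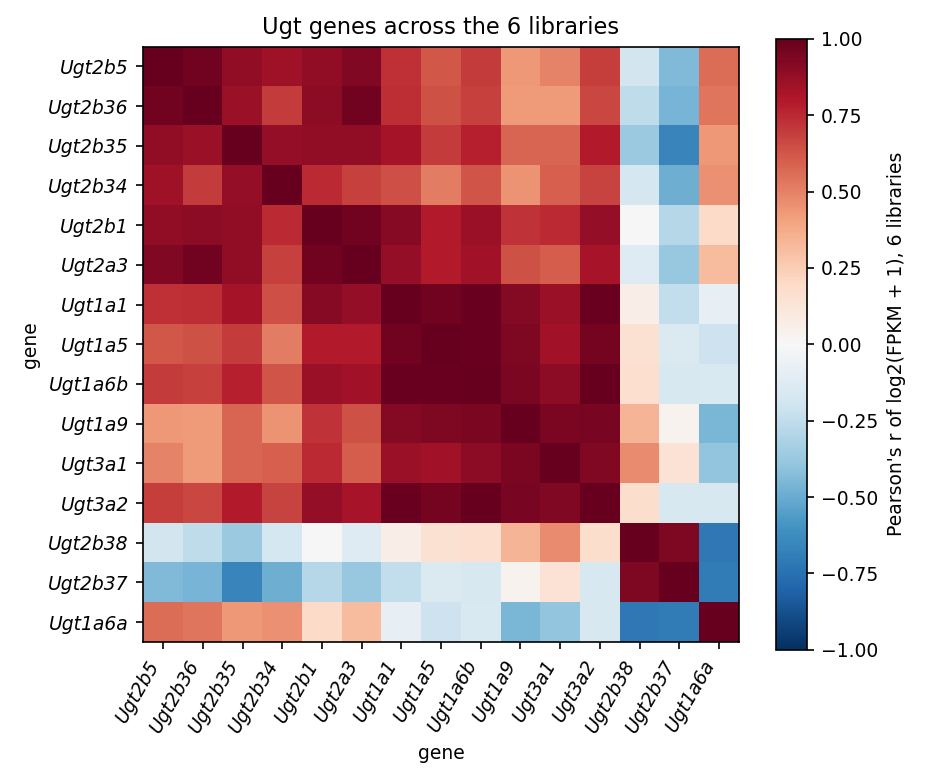
Pearson's r of log2(FPKM + 1) over the 6 libraries for the 15 Ugt genes that passed the filter, from -1 (blue) to 1 (red). The abundant Ugt2b genes, Ugt2a3, the Ugt1a genes other than Ugt1a6a and both Ugt3a genes are positively related, while Ugt2b37 and Ugt2b38 are related to each other (r = 0.93) and are near or below 0 against most of the others.

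The protein-coding genes outside the family whose log2 values over the 6 libraries were most like those of the 3 genes with the smallest p were sought among 4355 genes whose mean reached 5 FPKM. For Ugt2b38 they were Gnl1 (r = 0.996), Stk40 (r = 0.995) and Nfil3 (r = 0.991). Nfil3, a transcriptional repressor of the clock system, was at 4.2, 7.41 and 7.99 FPKM in WT libraries 1 to 3 and at 24.6, 25.1 and 11.6 FPKM in LKO libraries 1 to 3. For Ugt2b37 they were Tbc1d15 (r = 0.995), Supt6 (r = 0.993) and the nuclear lamina gene Lmna (r = 0.992). For Ugt1a6a they were the cytochrome P450 gene Cyp2a12 (r = 0.992), Txnl4b (r = 0.991) and Gnb2 (r = 0.985). Cyp2a12 was at 146, 179 and 221 FPKM in WT and at 120, 107 and 110 FPKM in LKO. None of these 9 genes passed the limma threshold. Each r is among the highest of 4355 genes over only 6 libraries, and a search of that size finds high r by itself. For Ugt2b37 the likeness rests mainly on LKO replicates 1 and 2. Lmna was no higher in LKO replicate 3 (6.87 FPKM) than in WT replicate 1 (6.95 FPKM).

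The supply of the co-substrate showed no called gene. Of 10 genes that make UDP-glucuronic acid, carry it into the endoplasmic reticulum or act on nucleotides and glucuronides there, 9 were tested, 0 were called by limma and 0 had an unadjusted p under 0.05, with a median log2 difference of 0.35. Slc35b1, a nucleotide transporter of the endoplasmic reticulum, was at 14.1 ± 4.96 FPKM in WT and 23.8 ± 4.2 FPKM in LKO (SD, n = 3; limma adjusted p = 0.566). Entpd5, which hydrolyses UDP there, was at 25.7 ± 10.2 and 39.1 ± 13.3 FPKM (limma adjusted p = 0.716). The phosphoglucomutase gene Pgm2 was at 1.01 ± 0.569 and 2.02 ± 1.07 FPKM (limma adjusted p = 0.652). Gusb, the lysosomal enzyme that removes glucuronic acid again, was at 3.48 ± 0.597 and 1.97 ± 1.01 FPKM (limma adjusted p = 0.566).

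Of 10 transporters that export glucuronides or take up organic anions, 9 were tested and 0 were called, with a median of -0.51. An unadjusted limma p under 0.05 was found for 1 of the 9, lower in LKO, against 4.93% of all genes tested. Abcc2, the exporter of bilirubin glucuronide into bile, was at 41.3, 49.3 and 56.2 FPKM in WT libraries 1 to 3 and at 25.1, 23.6 and 58.0 FPKM in LKO libraries 1 to 3 (limma adjusted p = 0.752). Abcc3, which exports glucuronides into blood, was at 18.6, 34.9 and 24.5 FPKM in WT and at 25.3, 49.9 and 103 FPKM in LKO (limma adjusted p = 0.635). LKO replicate 3 was the highest of the LKO libraries for both, as for Ugt1a1. Abcc6 was at 49.6 ± 13.1 and 26.0 ± 12.7 FPKM (SD, n = 3; limma adjusted p = 0.507), and the uptake carrier gene Slco2b1 at 21.1 ± 1.38 and 15.3 ± 6.82 FPKM (limma adjusted p = 0.724).

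Bilirubin, the substrate of UGT1A1, is formed from haem by haem oxygenase and biliverdin reductase. Of 8 genes of haem breakdown and bilirubin handling all were tested and 0 were called, with a median of 0.32. An unadjusted limma p under 0.05 was found for 2 of the 8, both higher in LKO, against 4.28% of all genes tested. Hmox1, the inducible haem oxygenase, was at 3.53, 3.41 and 1.79 FPKM in WT libraries 1 to 3 and at 17, 9.17 and 5.02 FPKM in LKO libraries 1 to 3 (limma adjusted p = 0.356). The groups did not overlap, and the order of the LKO libraries was that of Ugt2b37 and Ugt2b38. Blvrb, a biliverdin reductase, was at 43.2 ± 12.9 and 80.1 ± 20.5 FPKM (SD, n = 3; limma adjusted p = 0.516), Por, the cytochrome P450 reductase, at 135 ± 36.4 and 213 ± 53.7 FPKM (limma adjusted p = 0.650) and Gsta2, a glutathione transferase, at 26.3 ± 13.5 and 11.2 ± 6.64 FPKM (limma adjusted p = 0.609).

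Of 20 transcription factors linked to Ugt genes, 19 were tested and 0 were called, with a median of 0.23. An unadjusted limma p under 0.05 was found for 3 of the 19, against 9.22% of all genes tested. Of these, 2 were higher in LKO, Ahr and Foxa3 (4.28% of all genes), and 1 was lower (4.93%). Ahr, the aryl hydrocarbon receptor and an activator of Ugt1a6, was at 4.51, 4.28 and 6.95 FPKM in WT libraries 1 to 3 and at 9.08, 10.7 and 12.5 FPKM in LKO libraries 1 to 3 (limma adjusted p = 0.339). The groups did not overlap. The liver factor gene Foxa3 was at 25.5 ± 1.27 and 54.5 ± 25.4 FPKM (SD, n = 3; limma adjusted p = 0.494), and the oestrogen receptor gene Esr1 at 0.933 ± 0.392 and 1.96 ± 0.70 FPKM (limma adjusted p = 0.548).

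Of 15 genes used as reporters of xenobiotic and lipid receptors, 12 were tested and 0 were called, and the median was 1.42. An unadjusted limma p under 0.05 was found for 7, all higher in LKO, against 4.28% of all genes tested. Srxn1, a target of the antioxidant factor NFE2L2, was at 5.85, 5.97 and 6.33 FPKM in WT libraries 1 to 3 and at 44.9, 56.3 and 12.9 FPKM in LKO libraries 1 to 3 (limma adjusted p = 0.244). Without LKO replicate 3 its log2 difference was 2.86 and passed (limma adjusted p = 0.0288). That pass rests on leaving out the LKO library nearest to WT, a setting with 13 of all genes called higher, against 1 with all libraries. With any 1 library left out, the difference lay between 1.84 and 2.86, with limma adjusted p up to 0.758. Gclc, another NFE2L2 target, was at 32.0, 55.0 and 39.0 FPKM in WT and at 159, 112 and 82.1 FPKM in LKO (limma adjusted p = 0.281). In both, LKO replicate 3 was the lowest of the LKO libraries, as it was for Ugt2b37 and Ugt2b38. The targets of PPAR-alpha Cyp4a10 (71.7 ± 59.9 and 325 ± 39.1 FPKM, SD, n = 3; limma adjusted p = 0.352) and Cyp4a14 (18.7 ± 28.4 and 145 ± 77.3 FPKM; limma adjusted p = 0.319) were also higher in every LKO library than in any WT library. Cyp4a10 was lowest of the LKO libraries in replicate 3, at 294 FPKM, whereas Cyp4a14 was highest there, at 231 FPKM. Acot1 (4.12 ± 5.39 and 21.7 ± 14.7 FPKM), Cyp2b10 and Cyp3a11, also in the list, had higher means in LKO but overlapping groups. In all, 6 of the 12 genes tested were higher in every LKO library than in any WT library, against 8% of all genes tested, and 0 were lower. Further NFE2L2 targets in the list did not all go the way of Srxn1 and Gclc. Txnrd1 was higher in LKO (12.5 ± 2.33 and 24.0 ± 5.91 FPKM, SD, n = 3). Nqo1 was lower (2.45 ± 1.26 and 1.44 ± 0.879 FPKM) and Gclm alike (30.9 ± 6.56 and 29.4 ± 11.2 FPKM), both with overlapping groups.

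The tissue label was checked against hepatocyte markers, of which 7 of 8 were found by symbol and all 7 were expressed, with 0 called. Their summed level lay between 43000 and 57239 FPKM in WT and between 46736 and 63117 FPKM in LKO, with Alb, Apoa1, Apob and Cps1 the members with the smallest p (limma adjusted p = 0.873, 0.872, 0.903 and 0.807). Of the 8 pericentral hepatocyte markers 7 were tested, and 2 had an unadjusted limma p under 0.05. Both were higher in LKO, against 4.28% of all genes tested. Of the pericentral markers 0 were called, with a median of 0.49. Their summed level was 1364 and 2071 FPKM in WT and LKO replicate 1 and 4377 to 6254 FPKM in the other 4 libraries, but Cyp2e1 alone gave 938 and 1281 FPKM of the sums in WT and LKO replicate 1. With each of the 8 markers weighted equally, as the mean log2 level relative to the WT mean, WT libraries 1 to 3 were at -0.58, 0.19 and 0.39 and LKO libraries 1 to 3 at 0.24, 0.58 and 0.65. By that measure replicate 1 was the lowest library of each group, as it was for Ugt2b5, Ugt2b36, Ugt2b1 and Ugt2a3. Set against WT, LKO replicate 1 lay between WT replicates 2 and 3 by that measure and below both for these genes. The part of the pericentral markers in the levels of these genes was not tested. Oat was at 237 ± 105 and 495 ± 110 FPKM (SD, n = 3), Rhbg at 1.39 ± 1.09 and 4.45 ± 1.97 FPKM, Slc1a2 at 9.20 ± 2.53 and 14.9 ± 4.18 FPKM and Glul at 149 ± 59.2 and 191 ± 59.0 FPKM. Of the 7 pericentral markers tested, 6 had a log2 difference above 0 and 1 below, Cyp1a2 (429 ± 212 and 341 ± 76.6 FPKM). Over all genes tested, 54.1% were above 0. Transcripts of the mitochondrial genome made up 20.7% and 27.6% of reads in WT and LKO replicate 1, 10.2% and 18.5% in WT replicates 2 and 3 and 7.72% and 4.76% in LKO replicates 2 and 3. Their part in the levels of the Ugt genes was not tested.

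Of the periportal markers all 8 were tested and 0 called by limma, with 0 unadjusted p-values under 0.05 and a median of -0.44. The 4 with the smallest p were lower in LKO. Arg1 was at 673 ± 51.4 FPKM in WT and 508 ± 41.8 FPKM in LKO (SD, n = 3), Gls2 at 115 ± 21.2 and 78.7 ± 29.9 FPKM, Hal at 54.6 ± 18.0 and 32.8 ± 23.0 FPKM and Sds at 198 ± 89.7 and 134 ± 40.3 FPKM. In all, 6 log2 differences were below 0 and 2 above, against 54.1% above 0 over all genes tested. Those above were Hsd17b13 (73.5 ± 7.57 and 107 ± 52.1 FPKM) and Pck1 (937 ± 76.2 and 1040 ± 556 FPKM). Of 16 markers of other liver cells 11 were tested and 0 called by limma, again with 0 unadjusted p-values under 0.05 and a median of -0.07. Summed cholangiocyte markers (4 genes) lay between 1.05 and 1.84 FPKM in WT and between 0.448 and 5.62 FPKM in LKO, and those of Kupffer cells (3 genes) between 8.66 and 29.3 FPKM and between 9.27 and 26.0 FPKM. Sinusoidal endothelial markers (3 genes) lay between 13.3 and 23.1 FPKM in WT and between 6.84 and 22.3 FPKM in LKO, and stellate cell markers (3 genes) between 3.10 and 3.53 FPKM and between 1.94 and 5.96 FPKM. The members with the smallest p were Stab2, Clec4g, Adgre1 and the globin gene Hbb-bs (limma adjusted p = 0.766, 0.773, 0.890 and 0.825). None of the 16 was at 0 in any library, and every one of these sums overlapped between WT and LKO.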

How the data were processed

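RNA of liver from 3 WT and 3 LKO samples was sequenced from NEBNext Ultra libraries, per the labels' protocols. The authors deposited 1 table per library with FPKM values for 54532 gene identifiers; the unit was read from the values. The submitters' processing notes name mm10, DESeq2 1.20.0, featureCounts 1.5.0-p3, HISAT2 2.0.5 and CASAVA, with no role for any of them. The sources used here give neither annotation release, strand setting nor filters. Symbols, exon lengths and coordinates come from GENCODE vM21 (mm10), which held 54495 identifiers.

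Reads were recovered as FPKM times merged exon length over the step of each library that 1 read is worth: 96.1% to 96.4% of values above 0 came out whole within 0.05 read. They sum to 13947787 to 18159285 reads per library, whereas the totals implied by the steps are 12704131 to 19279637. No source used here explains this difference. The test was limma-trend (limma 3.58.1, R 4.3.3) on log2(FPKM + 1), robust, with genotype as its term. It covered 11672 genes whose mean reached 0.5 FPKM, and p-values were adjusted by Benjamini-Hochberg, with calls under 0.05. It understates changes of low genes. SDs are over FPKM.

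The fit was tested on simulated data with 11451 genes, 190 of them with a set difference. All genes were given the same dispersion, 0.117, and libraries were drawn independently. Calls were made for 4 of 59 at 2-fold, 52 of 68 at 4-fold and 63 of 63 at 16-fold, each in the true direction, and for 13 genes without a difference.

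The 10 genes and all lists were chosen with earlier results of these data known. The rule for names took every one of the 10 genes, every other Ugt gene past the filter, Arid2, up to 4 genes with the smallest p of each list, and 3 genes most like each of the 3 with the smallest p. A gene that this rule names and some motifs searched are not reported here. Alternatives tried were all genes without a filter, a minimum mean of 1 FPKM, a pseudocount of 0.1, scaling to library totals, quantile normalization, voom on recovered reads with TMM, a block for replicate numbers, leaving out each library, both libraries numbered 1 left out, array quality weights, and lengths without shared exons. Promoters are from RefSeq on GRCm38.p6, which held all 10 genes; alignments used Biopython 1.88, and figures matplotlib 3.10.9 with Python 3.11.15.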

Additional observations from a re-analysis of the deposited data

How the results depend on the processing

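None of the 10 genes was called by limma in the test as described or without a filter, with a minimum mean of 1 FPKM, a pseudocount of 0.1, scaling to library totals, quantile normalization, voom, the replicate block, or without both libraries numbered 1. Array quality weights gave 2 of the 10 genes higher (Ugt2b37 and Ugt2b38) and 1 lower (Ugt1a6a), but over all genes they gave 621 higher and 574 lower, and their estimate did not reach its convergence tolerance. With 1 library left out, 0 to 1 of the 10 genes were higher, Ugt2b37 without LKO replicate 3, and 0 were lower. Over all genes, 1 rose and 4 fell by limma as described; leaving out 1 library gave 0 to 13 higher, the most without LKO replicate 3, and 0 to 4 lower, with 0 either way without WT replicate 3 (652 unadjusted p-values under 0.05). No filter gave 0 higher and 1 lower, quantile normalization 0 higher, and leaving out both libraries numbered 1 gave 1 lower; the cause was not tested. The replicate block gave 0 higher and 0 lower over all genes, with 1478 unadjusted p-values under 0.05 against 1076 without it. The replicate numbers were not shown to pair the libraries: deviations from the group means of same-numbered libraries correlated at 0.49, 0.30 and -0.02 over 11672 genes, and WT replicate 2 correlated best with LKO replicate 3 (0.45).

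Ugt2b1 was at -0.049 with scaling to library totals, -0.044 with quantile normalization and between -0.35 and 0.57 with 1 library left out. With 1 library left out, the differences lay between -0.13 and 2.17 for Ugt1a1, -0.46 and 0.26 for Ugt2a3, -0.44 and 0.16 for Ugt2b34, -0.81 and 0.17 for Ugt2b35, -0.80 and 0.0037 for Apoa1, -0.0011 and 0.57 for Apob, -0.00035 and 0.38 for Adgre1, and -0.19 and 0.12 for Arid2. Ugt2b37, Ugt2b38, Ugt1a6a, Ugt2b5 and Ugt2b36 kept their sign in 15 of 15 alternatives. Over all alternatives, 134 differences of the 10 genes kept sign and call, 12 turned sign and 4 newly passed. Depth limits Ugt2b37 in WT, at 10 to 19 reads, and Ugt1a1 in LKO replicate 1, at 37 reads.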
